A study of Mus musculus with 4 samples.

Results

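The loci described here are those of 34 mouse genes that encode cytokine receptors, chemokine and egress receptors, adhesion molecules of thymocyte homing, and inhibitors of cytokine signalling. They were examined for peaks of TOP2B, the beta form of DNA topoisomerase II, in wild-type C57BL/6 thymocytes. A peak was assigned to a gene when its centre lay inside the gene or within 50 kb of it. Overlapping windows were merged, so that the 34 genes gave 31 loci covering 4.22 Mb, or 0.160% of the genome. These windows held 20 of the 3564 peaks called with the Novus antibody and 115 of the 17754 called with the Santa Cruz antibody. A peak was called common when the calls of both antibodies shared at least 1 bp, which applied to 994 Novus peaks genome-wide and to 2 in these windows.

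The series holds 4 ChIP libraries of thymocytes from mice of 4 to 6 weeks of age, namely TOP2B with either antibody, TOP2A and an IgG control. The animals of every library were wild type, and the peak lists of the 2 TOP2B libraries were used here. Each antibody was represented by 1 library, so no error between replicates could be given, and intervals cover counting error only. The lists hold positions and no heights, and the number of reads behind a peak is unknown from them. No marker of the thymocytes could be checked, since no expression was measured, and whole thymus cells were not separated by stage.

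Topoisomerase II passes one DNA duplex through a transient break in another and so relieves supercoils and tangles. TOP2B is the form found in cycling and resting cells alike, and it is known to bind promoters, enhancers and CTCF-bound sites at the anchors of chromatin loops. Many cytokine receptors, though not all of those included here, signal through JAK kinases and STAT factors, which SOCS proteins restrain. In the thymus, IL-2 and TGF-beta receptors take part in the development of early and regulatory T cells, whereas chemokine receptors and integrins guide progenitors into the cortex and medulla, and S1PR1 leads mature cells out.

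The common peaks are shown first because they are the only positions in these windows that both antibodies called. The *Il2ra* sequence covers chr2:11585607-11585882 in the first of 7 introns, and the *Itgb7* sequence covers chr15:102055019-102055281 at exon 3 of 15. Both are given 5′ to 3′ on the plus strand of mm9, and capitals mark the 106 and 119 bases, respectively, that both calls shared. The capitals of the *Il2ra* sequence include a match to the CTCF core motif with 1 mismatch.
Il2ra: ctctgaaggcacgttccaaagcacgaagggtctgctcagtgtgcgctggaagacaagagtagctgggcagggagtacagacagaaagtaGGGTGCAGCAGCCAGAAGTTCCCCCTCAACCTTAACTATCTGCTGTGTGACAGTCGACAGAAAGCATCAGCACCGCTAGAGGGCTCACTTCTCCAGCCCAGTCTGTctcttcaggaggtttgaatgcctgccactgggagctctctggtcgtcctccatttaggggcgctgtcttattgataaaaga
Itgb7: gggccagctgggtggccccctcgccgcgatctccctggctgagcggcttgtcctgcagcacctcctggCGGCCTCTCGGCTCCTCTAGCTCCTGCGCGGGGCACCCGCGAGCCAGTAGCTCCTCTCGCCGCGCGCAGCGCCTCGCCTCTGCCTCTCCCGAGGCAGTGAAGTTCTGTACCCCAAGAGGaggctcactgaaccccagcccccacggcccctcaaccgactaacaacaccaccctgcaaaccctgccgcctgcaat

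The next sequences are from Santa Cruz peaks at starts of member genes, also on the plus strand of mm9. Capitals mark an E protein motif (CAGGTG) in *Tgfbr2* at chr9:116083668-116083854, a RUNX motif (TGTGGTT on the minus strand) in *Ccr7* at chr11:99016430-99016616, and a CTCF core match with 1 mismatch on the minus strand in *Socs1* at chr16:10785146-10785332. The second *Tgfbr2* sequence (chr9:116084384-116084436) and that of *Ccr9* (chr9:123676468-123676621) are the parts of their peaks outside untranslated exon bases, and none of the searched motifs was found in the printed stretches, whereas the whole *Ccr9* peak holds 1 E protein motif, which begins in the bases left out.
Tgfbr2 first: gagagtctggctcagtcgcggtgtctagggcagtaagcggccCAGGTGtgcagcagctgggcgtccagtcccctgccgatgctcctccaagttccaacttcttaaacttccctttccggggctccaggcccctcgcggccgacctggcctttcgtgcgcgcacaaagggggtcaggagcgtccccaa
Tgfbr2 second: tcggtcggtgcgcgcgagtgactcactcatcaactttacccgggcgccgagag
Ccr9 start: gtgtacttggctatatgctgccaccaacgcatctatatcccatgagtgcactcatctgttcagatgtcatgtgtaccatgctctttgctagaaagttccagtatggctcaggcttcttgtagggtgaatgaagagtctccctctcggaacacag
Ccr7 start: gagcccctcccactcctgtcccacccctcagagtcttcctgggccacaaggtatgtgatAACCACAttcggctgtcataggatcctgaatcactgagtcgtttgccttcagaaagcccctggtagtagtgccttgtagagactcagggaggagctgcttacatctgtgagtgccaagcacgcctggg
Socs1 start: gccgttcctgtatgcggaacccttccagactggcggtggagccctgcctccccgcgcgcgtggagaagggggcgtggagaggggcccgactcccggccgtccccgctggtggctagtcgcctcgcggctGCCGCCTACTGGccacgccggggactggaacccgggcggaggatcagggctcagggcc

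A further pair was chosen after positions and motif matches had been seen, from 4 places where calls of both antibodies lay close without touching. At *S1pr1* and upstream of *Ccr9* the calls were 15 and 19 bases apart. At the places not shown, *Ifnar2* and *Tgfbr1*, they were 256 and 301 bases apart and no CTCF core match was found. The Novus peak downstream of *S1pr1* covers chr3:115364076-115364270, and the Santa Cruz peak upstream of *Ccr9* covers chr9:123548010-123548196. Capitals mark CTCF core matches with no mismatch on the plus strand. Only the call of each pair that holds the match is printed. The Santa Cruz partner at *S1pr1* had no core match within 250 bp of its centre. The Novus partner at *Ccr9* had its match 211 bp from its centre, outside the call itself.
S1pr1 downstream: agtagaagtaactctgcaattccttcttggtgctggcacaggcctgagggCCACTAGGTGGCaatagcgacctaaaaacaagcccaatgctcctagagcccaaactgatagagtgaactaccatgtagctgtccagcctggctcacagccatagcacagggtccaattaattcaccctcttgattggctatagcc
Ccr9 upstream: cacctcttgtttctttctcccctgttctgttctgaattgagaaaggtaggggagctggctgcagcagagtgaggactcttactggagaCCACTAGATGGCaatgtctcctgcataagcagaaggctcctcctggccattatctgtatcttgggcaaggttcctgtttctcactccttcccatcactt

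Peaks of both lists were denser around these genes than over the genome. The Santa Cruz windows held 27.2 peaks per Mb against 6.73 genome-wide and 9.13 in windows of all protein-coding genes. The Novus windows held 4.73 per Mb against 1.35 genome-wide and 1.97 in all gene windows. When each list was shifted as a ring along each chromosome 10000 times, the same windows received a mean of 32.8 Santa Cruz peaks, with 95% of shifts between 18 and 51. The observed 115 was 3.50 times that mean (95% Poisson interval of the count, 2.89 to 4.20). For Novus the shifted mean was 6.38 (2 to 13), and the observed 20 was 3.13 times it (1.91 to 4.84). Common peaks did not stand apart from shifts, with 2 observed against a mean of 1.78 (0 to 5) and a ratio of 1.12 (0.136 to 4.05). Shifts carry peaks into gene-poor regions, and shifts of 10 kb to 1 Mb gave lower ratios of 1.90 for Santa Cruz and 2.02 for Novus. The Poisson intervals treat peaks as independent and take no account of clustering. Since members were chosen with earlier results of these data known, the ratios describe these windows and are not a test.

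**Figure D1:**
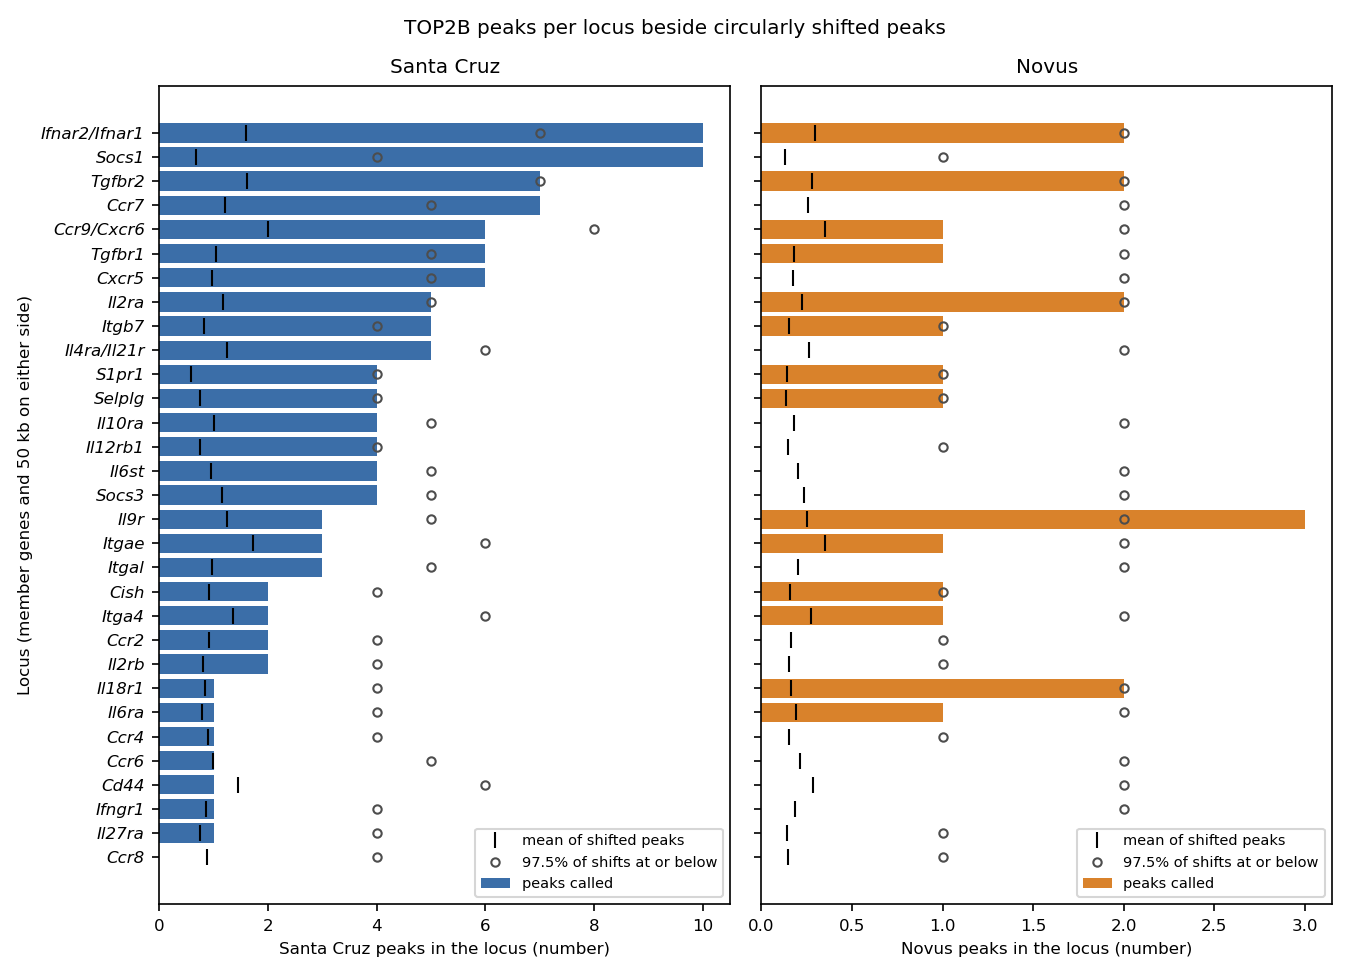
Number of TOP2B peaks in each of the 31 loci (vertical axis) in the Santa Cruz and Novus lists (horizontal axes, number of peaks). Bars are called peaks, ticks the mean of shifted peaks, and open circles the upper end of the range that held 95% of shifts. The *Ifnar2*/*Ifnar1* and *Socs1* loci lead the Santa Cruz list with 10 peaks each, in windows of 235 and 102 kb, and *Il9r* leads the Novus list with 3.

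At the level of genes, 33 of the 34 members (97.1%) had a Santa Cruz peak within 50 kb, compared with 67.6% of 22350 protein-coding genes. Novus peaks lay within 50 kb of 14 members (41.2%), compared with 27.6% of all genes, and every one of those loci also held a Santa Cruz peak. Common peaks were near 2 members (5.88%), below the 9.25% of all genes. The median member had 4 Santa Cruz peaks in its window (quartiles 2 and 5) and the median gene 1 (0 and 3). The median window was 117 kb for members and 115 kb for all genes, and it held 1.5 and 2 other coding genes, respectively. With no other coding gene in the window, the 9 members had a mean of 4.11 Santa Cruz peaks and all 3907 genes a mean of 1.26. With 1 to 2, 3 to 4 and 5 to 8 other genes, the means were 3.17, 3.38 and 4.20 for members and 1.58, 1.75 and 1.99 for all genes. The part of window size and gene density in the counts was not tested.

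**Figure D2:**
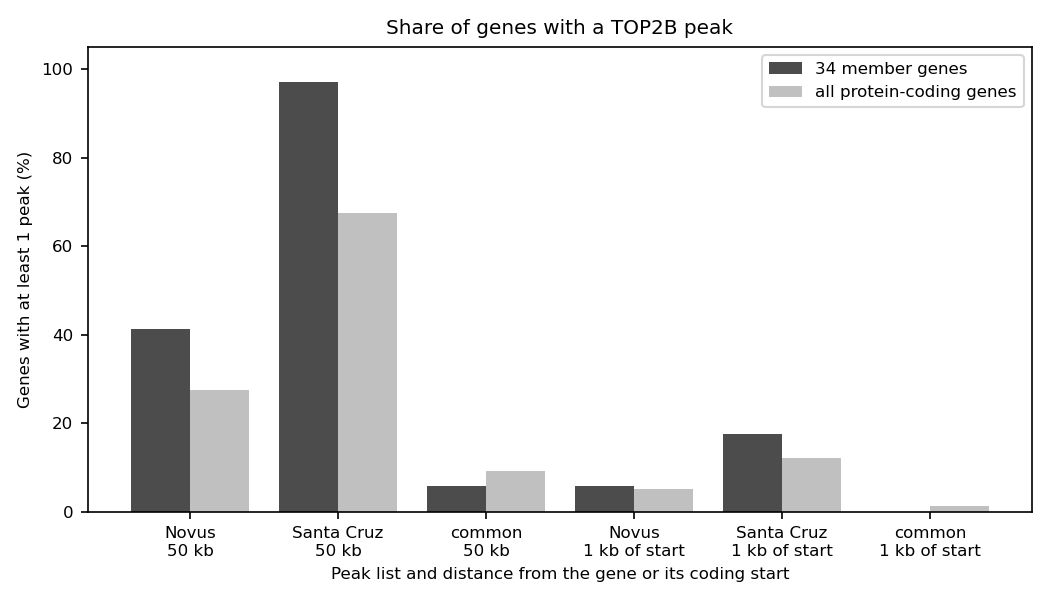
Percent of genes (vertical axis) with a peak of each list within 50 kb or within 1 kb of a coding start, for the 34 members and for all protein-coding genes. Members exceed all genes most clearly for Santa Cruz peaks within 50 kb, 97.1% against 67.6%.

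Fewer members had a peak within 1 kb of a start than within 50 kb, but that limit covers far less sequence. Santa Cruz density was highest there, at 8.55 peaks per 100 kb. A Santa Cruz peak lay within 1 kb of a coding start in 6 members (17.6%), against 12.1% of all genes, namely *Ccr7*, *Ccr9*, *Ifnar2*, *Socs1*, *Socs3* and *Tgfbr2*. Novus peaks did so at *Ifnar2* and *Itga4*, or 5.88% of members against 5.11% of all genes. No member had a common peak there, against 1.27% of all genes. With 34 members, 1 gene more or less moves such a share by several percentage points, so these shares stand close to the background.

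Of the gamma chain family, which shares the subunit encoded by *Il2rg*, the 5 members held 5 Novus and 15 Santa Cruz peaks. *Il2ra* encodes the high-affinity alpha chain of the IL-2 receptor, known as CD25. Both of its Novus peaks were in the first intron, at chr2:11579212-11579406 and chr2:11585607-11585801, 14.9 and 21.3 kb from the start. The second was the common peak printed above, whose Santa Cruz centre was 85 bp away. Another Santa Cruz peak was also in that intron, 10.9 kb from the start, and the remaining 3 were at *Rbm17* and *Il15ra*, the gene of the IL-15 receptor alpha chain.

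*Il9r*, the receptor of the mast cell and T-cell growth factor IL-9, had the most Novus peaks of any locus. They were at chr11:32062129-32062323, chr11:32082597-32082791 and chr11:32096137-32096331, of which the last was in the first intron and the others were downstream. The 3 Santa Cruz peaks there came no closer than 9.28 kb to a Novus peak. Its Novus count was above the range that held 95% of shifts, which applied to 1 of the 31 loci, and 1.36% of all genes had at least 3 Novus peaks in their window. *Il4ra* and *Il21r*, neighbours that encode receptors of IL-4 and IL-21, shared 5 Santa Cruz peaks, 3 of them in introns of *Il21r*, with the nearest 2.48 kb from its start. *Il2rb*, the beta chain of the IL-2 and IL-15 receptors, had 2, the nearer 17.2 kb away.

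The 4 members of the IL-6 and IL-12 family held 1 Novus and 10 Santa Cruz peaks, with none at a start. *Il6ra* had a Santa Cruz peak in its first intron and a Novus peak at chr3:89757382-89757576, in an intron of *Atp8b2*, 40.4 kb upstream. *Il6st*, which encodes the shared signal transducer gp130, had 4 Santa Cruz peaks, all at least 34.7 kb from its start. *Il12rb1*, a subunit of the IL-12 and IL-23 receptors, also had 4, and *Il27ra* had 1, in an exon of *Samd1*.

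The interferon receptor locus on chromosome 16 held as many Santa Cruz peaks as any. *Ifnar2* and *Ifnar1* encode the chains of the type I interferon receptor and lie beside *Il10rb* and *Ifngr2*, whose products belong to the IL-10 and interferon-gamma receptors. The merged window of 235 kb, the widest of all the loci, held 10 Santa Cruz and 2 Novus peaks. The *Socs1* window held as many Santa Cruz peaks in 102 kb. At the *Ifnar2* start, the Santa Cruz call (chr16:91372935-91373121) was centred on the start itself and the Novus call (chr16:91373378-91373572) 191 bp from one of its starts. Their centres were 447 bp apart and 256 bases separated the calls, so *Ifnar2* was the only member with start peaks in both lists but did not carry a common peak. The second Novus peak (chr16:91406525-91406719) was at the start of *Il10rb*.

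The other Santa Cruz peaks of that window ran along *Ifnar1* and towards *Ifngr2*. A peak lay 14.2 kb upstream of *Ifnar2*, and a pair lay 26.6 and 25.6 kb upstream of *Ifnar1*. Introns 2 and 8 of *Ifnar1* held 1 each, 5.43 and 15.9 kb from the start. Downstream, peaks followed at 27.0, 48.6, 56.5 and 61.6 kb, the last at the start of *Ifngr2*. Thus 3 of the 4 receptor genes in the cluster had a peak of at least 1 antibody at a start, and *Ifnar1* had none. Of all genes, 12.1% had a Santa Cruz and 5.11% a Novus peak at a start. *Il10rb* and *Ifngr2* are neighbours and not members, and 4 genes of 1 locus are too few to compare with those shares.

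Elsewhere in this group, *Il18r1*, which encodes a chain of the IL-18 receptor, had 1 Santa Cruz peak in intron 5. Its 2 Novus peaks were in introns of the neighbour *Il18rap*, the gene of the accessory chain, at chr1:40586285-40586479 and chr1:40599392-40599586. *Il10ra* had 4 Santa Cruz peaks, none inside the gene, and *Ifngr1* had 1, 21.7 kb downstream of the start.

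Both TGF-beta receptor genes had peaks in both lists, with 3 Novus and 13 Santa Cruz peaks in all. *Tgfbr2*, which encodes the ligand-binding type II kinase, had 7 Santa Cruz peaks, of which 5 were inside the gene. A pair of these was at the start, 40 and 622 bp into the gene at chr9:116084250-116084436 and chr9:116083668-116083854. Others were in intron 3, at 50.2 and 51.9 kb, and in the last exon, at 87.1 kb. The last ones lay 14.0 kb upstream of the start and 141 kb downstream of it, in an intron of *Gadl1*. The Novus peaks were past the 3′ end, at chr9:115986269-115986463 and, in *Gadl1*, at chr9:115969799-115969993, and were 10.9 and 26.2 kb from the nearest Santa Cruz peak.

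*Tgfbr1*, the gene of the type I kinase that the type II receptor phosphorylates, had 6 Santa Cruz peaks but only 1 inside the gene, in intron 4. Its Novus peak (chr4:47333092-47333286) was 32.9 kb upstream, with a Santa Cruz centre 492 bp away. At neither TGF-beta receptor did the calls of both antibodies overlap.

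**Figure D3:**
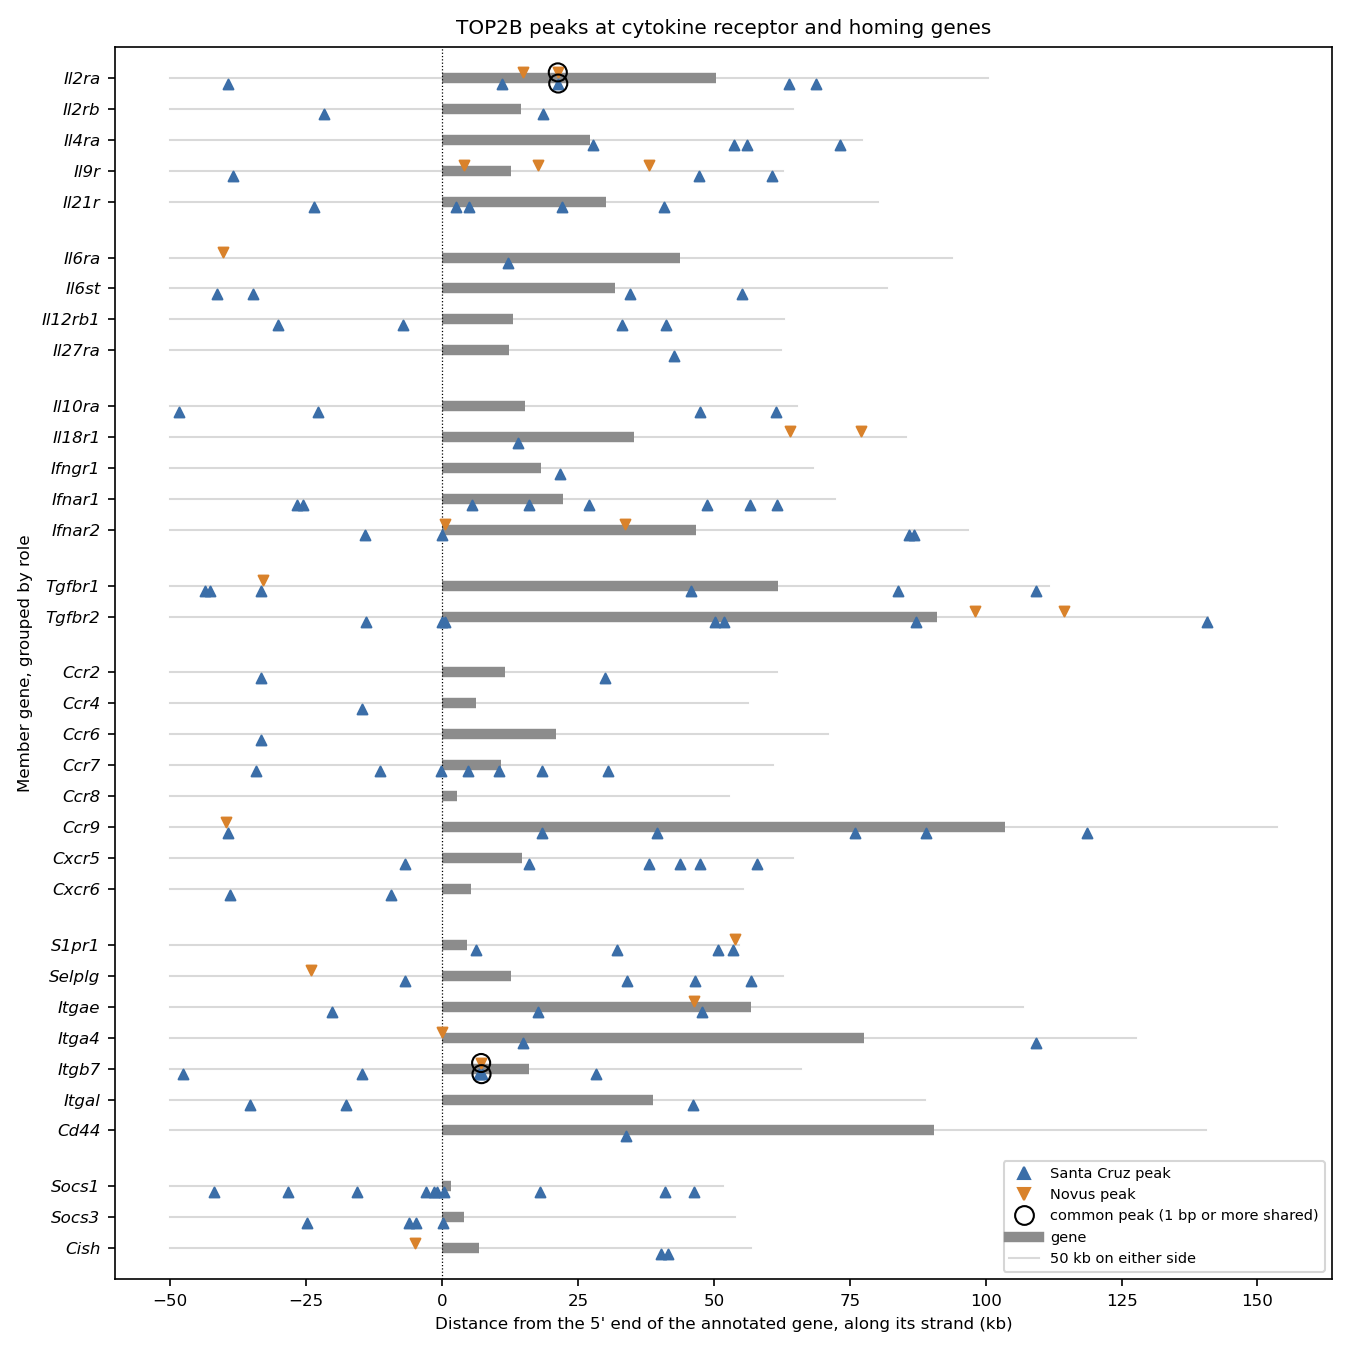
Position of each TOP2B peak relative to the start of the gene (horizontal axis, kb) for each of the 34 members (vertical axis, by role). Thick grey bars are genes, thin lines the 50 kb on either side, orange triangles above the line Novus peaks, blue triangles below it Santa Cruz peaks, and black circles the common peaks at *Il2ra* and *Itgb7*. Most peaks lie away from the starts, as does most of the sequence in the windows, and *Ccr8* has none.

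Among the 8 chemokine receptors, 23 Santa Cruz peaks but only 1 Novus peak were found. *Ccr7* encodes the receptor that draws positively selected thymocytes into the medulla. It had 7 Santa Cruz peaks over 64.8 kb, with the nearest Novus peak 400.1 kb from its start. The start peak at chr11:99016430-99016616 was centred 132 bp upstream. The others were 11.4 and 34.2 kb upstream, in the first intron and the last exon at 4.84 and 10.4 kb, and downstream at 18.3 and 30.6 kb. All of them were placed in or nearest to *Ccr7* itself, and none was at the start of another gene.

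*Ccr9* encodes the receptor of CCL25, the chemokine of the thymic stroma. Together with *Cxcr6* it formed a window with 6 Santa Cruz peaks, among them chr9:123676435-123676621, 181 bp from a start of *Ccr9*, and peaks at *Lztfl1* and *Fyco1*. The Novus peak (chr9:123547796-123547990) lay 39.7 kb upstream in an intron of *Slc6a20a*, where 19 bases separated it from a Santa Cruz call. In this annotation *Ccr9* spans 104 kb because of a transcript that starts far upstream, and when only the most 5′ start of each gene was used the *Ccr9* start peak was no longer counted.

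The remaining chemokine receptors had Santa Cruz peaks without a start peak. *Cxcr5*, which guides cells to B-cell follicles, had 6, of which 5 were downstream towards *Bcl9l*. *Ccr2* had 2, and *Ccr4*, whose ligands also act in the medulla, and *Ccr6* had 1 each. *Ccr8* was the only member with no peak of either list, its nearest Santa Cruz peak being 81.9 kb and its nearest Novus peak 342 kb from the start. The window of *Ccr2* ended at the end of chromosome 9.

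Of the 7 egress and adhesion genes, 5 had a Novus peak in the window, as did 1 of the 8 chemokine receptors, against 27.6% of all genes. The groups are small, and the difference was not tested. *Itgb7* encodes the beta 7 integrin chain, which pairs with the products of *Itga4* and *Itgae*. Its common peak was the Novus call chr15:102055087-102055281 and the Santa Cruz call chr15:102055019-102055205, with centres 72 bp apart. A second Santa Cruz peak followed 527 bp away in intron 2, and 3 more were at starts of *Zfp740*, *Rarg* and *Mfsd5*.

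*Itga4*, the alpha 4 chain, carried a Novus peak at its start (chr2:79095382-79095576), 104 bp upstream, with the nearest Santa Cruz peak 14.9 kb away in intron 3. *Itgae* encodes CD103, which binds E-cadherin on epithelium. Its Novus peak (chr11:72950297-72950491) and a Santa Cruz peak 1.59 kb away were at *Gsg2*, a gene that overlaps *Itgae*, 46.3 and 47.9 kb from the *Itgae* start, and a further Santa Cruz peak was in intron 2. *Itgal*, the alpha chain of LFA-1, had 3 Santa Cruz peaks outside the gene, and *Cd44*, a hyaluronan receptor of early progenitors, had 1 in its first intron.

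*S1pr1*, the receptor through which mature thymocytes leave for the blood, had 4 Santa Cruz peaks, all downstream between 3.90 and 51.2 kb from the start. The Novus peak printed above was 51.4 kb away and 15 bases from the nearest Santa Cruz call. *Selplg* encodes PSGL-1, the selectin ligand with which progenitors enter the thymus. It had 4 Santa Cruz peaks, the nearest 6.78 kb upstream, and a Novus peak at chr5:114304525-114304719 in an intron of *Coro1c*.

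The 3 SOCS inhibitors held 16 Santa Cruz peaks, of which *Socs1* accounted for 10 over 88.3 kb. SOCS1 binds and blocks JAK kinases downstream of gamma chain and interferon receptors. Peaks at its start were chr16:10785146-10785332, 390 bp into the gene, and chr16:10786488-10786674, 952 bp upstream. The next upstream peak, at 1.57 kb, was just past the limit of 1 kb. It was also 1550 bp from a start of *Tnp2*, a sperm transition protein gene. Peaks at 2.97, 15.7 and 28.3 kb were at starts of *Tnp2*, *Gm10343* and *Gm11172*, respectively, and another was at 42.0 kb. Downstream, peaks lay at 17.96 kb and, in *Clec16a*, at 41.1 and 46.3 kb. Novus called no peak within 50 kb of *Socs1*, the nearest being 220.0 kb from its start.

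*Socs3*, an inhibitor of signalling through gp130, had 4 Santa Cruz peaks. The start peak at chr11:117831168-117831354 was centred 761 bp from the start of the annotated coding transcript and lay within untranslated exon bases, so its sequence was not printed. *Cish*, a STAT5 target gene whose product limits IL-2 signals, had a Novus peak 4.94 kb upstream (chr9:107193322-107193516) and 2 Santa Cruz peaks at *Hemk1*. That Novus peak was closer to a start of *Mapkapk3*, 1211 bp away.

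By locus, the Santa Cruz count was above the range that held 95% of shifts at *Ifnar2*/*Ifnar1*, *Socs1*, *Ccr7*, *Tgfbr1*, *Cxcr5* and *Itgb7*, or 6 of the 31 loci. These loci held between 5 and 10 peaks. How many windows of all genes exceed their own range was not counted for either list, so 6 of 31 has no background. Shifts along whole chromosomes also reach gene-poor regions. Over all the loci, shifts of 10 kb to 1 Mb lowered the Santa Cruz ratio from 3.50 to 1.90. Counted gene by gene, 25.6% of all genes had at least 3 Santa Cruz peaks in their window, as 21 members did, and 13.9% had at least 4, as 18 members did. At least 7 were found for 1.84% of all genes and for 4 members, *Ccr7*, *Ifnar1*, *Socs1* and *Tgfbr2*, and at least 10 for 0.309% of all genes and for *Socs1*.

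With distance from the start, Santa Cruz density fell from 8.55 peaks per 100 kb in the first kb to 1.86 between 1 and 5 kb, then stood at 2.46, 3.10 and 2.70 in the bands up to 10, 20 and 50 kb. The mean over shifts was 0.765 to 0.781 in every band. The Santa Cruz count was above the range that held 95% of shifts in every band but that of 1 to 5 kb, where 6 peaks were found and the range was 0 to 6. Novus density was 2.14 in the first kb and 0.273 to 0.620 beyond, against shifted means of 0.140 to 0.153. Only the first band, with 2 peaks and a range of 0 to 1, was above the range of shifts, and the counts of all the bands beyond 1 kb were within it. These ranges are of shifts along whole chromosomes, and the bands were not counted for all genes. Within 1 kb of a coding start, 17.6% of members and 12.1% of all genes had a Santa Cruz peak. For Novus these shares were 5.88% and 5.11%. The excess of the first kb over shifts is thus not shown to be particular to these genes.

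**Figure D4:**
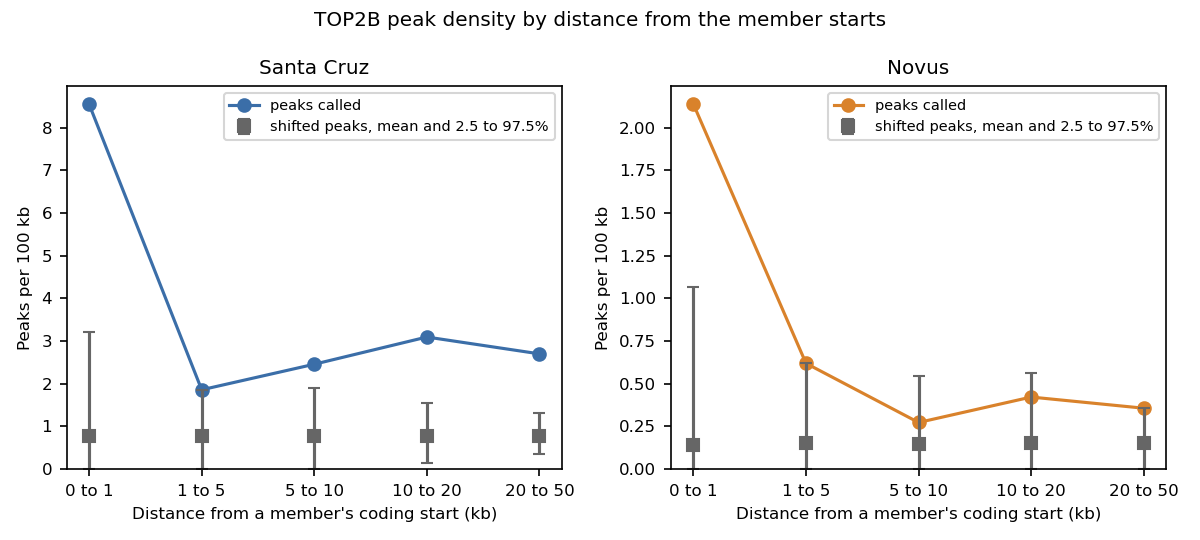
Peaks per 100 kb (vertical axis) by distance of the centre from a coding start of a member (horizontal axis, kb), as called (circles) and after circular shifts (squares, mean with the range of 95% of shifts). Santa Cruz density is highest within 1 kb, at 8.55, and lies above the shifted mean of 0.765 to 0.781 in every band, but within the range of shifts at 1 to 5 kb. The same bands are not shown for all genes.

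Many of these peaks were at genes other than the members. Of the 22 Santa Cruz peaks at a coding start (19.1% of 115, 95% exact interval 12.4 to 27.5, against 15.2% of the whole list), 8 were at members and 14 at neighbours. Intergenic peaks made up 42.6% (33.4 to 52.2), against 42.8% of the list. For Novus, 3 of 20 peaks were at a coding start (15.0%, 3.21 to 37.9, against 29.7%), and 9 were in introns. Each of these intervals included the share of its own whole list.

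The overlap between antibodies was 10.0% of the 20 Novus peaks (1.23 to 31.7) and 1.74% of the 115 Santa Cruz peaks. In the whole lists it was 27.9% and 5.65%. Allowing a distance of 500 bp between centres added the pairs at *S1pr1*, *Ccr9*, *Ifnar2* and *Tgfbr1*, which brought the Novus count to 6 of 20 (95% exact interval 11.9% to 54.3%), against 35.0% of all Novus peaks. Whether the antibody or the library accounts for the different lists was not tested.

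Motif shares of the peaks had intervals that included those of the lists they came from. The CTCF core motif, searched on both strands with up to 1 mismatch and 250 bp around the centre, was found at 6 of 20 Novus peaks (interval 11.9% to 54.3%) and 21 of 115 Santa Cruz peaks (18.3%, 11.7 to 26.5). The whole lists had 25.6% and 15.9%, and shifted positions 4.99% and 5.21%. The other motifs were searched without mismatch, on both strands, in the called peak. The RUNX motif was found in 11 Santa Cruz peaks (9.57%, 4.87 to 16.5), against 4.89% of the list and 4.58% of shifted positions. The E protein motif was found in 19.1%, against 16.2% and 12.2%, and some forms of the CTCF core contain it. The STAT motif (TTCNNNGAA) was found in 6.09% of the Santa Cruz peaks, against 4.96% of the list and 6.49% of shifted positions, and the ETS motif (CCGGAAG) in 1.74%, against 2.15% and 0.682%. The median GC content was 53.1% in the Novus and 51.3% in the Santa Cruz peaks of these windows, against 51.8% and 48.1% of the lists and 43.6% and 43.9% of shifted positions. A match is a run of letters and does not show that the factor was bound.

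The other genes of these pathways, 61 in all, were counted in the same way, and 8 of them overlap windows of members. Novus peaks were within 50 kb of 32 (52.5%, against 27.6% of all genes) and Santa Cruz peaks within 50 kb of 53 (86.9%, against 67.6%). Common peaks were near 12 (19.7%, against 9.25%), among them *Jak1* and *Jak3*, kinases of cytokine receptors, *Stat3*, *Stat5a* and *Stat5b*, and *Smad7*, an inhibitor of TGF-beta signals. Genes were counted singly here, as in the share of all genes, so 1 peak can count for several neighbours. *Stat5b*, *Stat5a* and *Stat3* adjoin on chromosome 11 with overlapping windows. The common peak counted for *Il15ra* is that of the member *Il2ra*. At a start, 7 had a Novus peak (11.5%, against 5.11%) and 10 a Santa Cruz peak (16.4%, against 12.1%). *Itga6*, the alpha 6 integrin chain, was among those with a common peak at a start. Receptor genes with a Santa Cruz start peak included *Cxcr4*, *Il17ra*, *Il15ra* and *Ifngr2*.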

How the data were processed

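TOP2B was profiled by ChIP in thymocytes, and per the labels and methods the authors used Bowtie 1.2.0 for alignment to mm9. Peaks came from HOMER, run for every library on its own, and passed thresholds of enrichment over IgG and of false discovery. The deposited files hold peak positions, and the deposited score is 0 in every row. The TOP2A and IgG libraries were not used here.

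Genes were placed with GENCODE M1 on the NCBIM37 (mm9) genome. Shares carry exact Clopper-Pearson 95% intervals. Circular shifts numbered 10000 and local shifts 500, and are given as a description without a p-value. Scripts ran in Python 3.11.15 with numpy 2.4.6, pandas 2.3.3, scipy 1.17.1 and pyfaidx 0.9.0.4, and were tested on simulated data.

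Members and lists were chosen with earlier results of these data known. Start peaks, common peaks and Novus peaks of members are named by position, as are Santa Cruz peaks of the loci with most, where a tie for the last place added *Tgfbr2* and *Ccr7* together. Up to 8 sequences were to be printed, common peaks first and then start peaks in genome order, and 2 were added afterwards. Alternatives covered the window, the promoter, the overlap, the shifts and the motif search.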

Additional observations from a re-analysis of the deposited data

How the results depend on the processing

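Of the values recomputed under an alternative, 44 stayed near the reported one (counts within 1.5 times, shares and ratios within their interval) and 15 moved. Windows of 10 kb, 100 kb and the gene alone held 11, 31 and 7 Novus peaks and 49, 182 and 30 Santa Cruz peaks. Novus peaks were then near 8 members at 10 kb and inside 5, and Santa Cruz peaks inside 16. Local shifts lowered the Santa Cruz ratio to 1.90. Common peaks numbered 6 with centres within 1 kb and 7 with both lists extended by 1 kb, and their ratio, which rests on 2 peaks, was 4.69 inside genes alone but fell below 1 with windows of 100 kb (0.646) and with local shifts (0.894). The share of Santa Cruz peaks with a CTCF core was 4.35% without mismatches and 9.57% within the called peak. The whole Santa Cruz list had 4.48% and 9.07% under the same settings. A stricter threshold could not be run, because every score is 0. No replicate could be left out, as there was 1 library per antibody. No paired analysis was possible because each antibody has a single library.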
